A study of Rattus norvegicus with 18 samples.

Results

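Cytosolic ribosomal protein genes encode the protein part of the cytosolic ribosome, and their transcripts were measured here in the dorsal hippocampus of rats fed control diet, fed ethanol diet, or withdrawn from ethanol diet. Members were the genes whose symbol is Rpl or Rps followed by a number, with at most one further letter a, x or l, together with Rplp0, Rplp1, Rplp2 and Rpsa. Kinases and pseudogenes were left out. Of the 38445 genes in the deposited counts, 78 met the rule on symbols, and 70 of these were above 5 CPM (counts scaled to a common library size by the TMM method) in at least 6 libraries. All 70 were in fact above 5 CPM in each of the 18 rats, so that none entered through one group alone. The 70 members comprised 29 proteins of the small subunit and 41 of the large subunit.

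Each ribosome holds one copy of nearly every ribosomal protein, so cells make these proteins in matched amounts. The small subunit reads the mRNA, and the large subunit joins the amino acids and lets the new chain out through a tunnel. The mRNAs of ribosomal proteins begin with a C followed by a run of C and T, the 5′ terminal oligopyrimidine (TOP) tract, through which the mTORC1 kinase and the RNA-binding protein LARP1 control their translation. In neurons, ribosomes are present in the cell body and in dendrites, where local protein synthesis takes part in synaptic plasticity.

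The rats were male Sprague Dawley, 75 to 85 days old on arrival, and all received a Lieber-DeCarli liquid diet as their only food. The 6 control rats stayed on control diet for 16 days. The 6 ethanol rats were brought to 9% (v/v) ethanol over 7 days, held there for 16 days and killed with no withdrawal. The 6 withdrawal rats had 15 days of 9% ethanol, followed by 24 h of control diet. The comparisons ask which transcripts differ during ethanol feeding and which differ after its removal. Each library came from 1 rat and was made from polyadenylated RNA, and total counts on genes ran from 30873228 to 42679748. The index sequences of the libraries fell into 3 sets. The 6 control libraries had set 1, the 6 ethanol and 2 withdrawal libraries set 2, and the other 4 withdrawal libraries set 3, so that a difference from control cannot be told apart from a difference between index sets. In whole tissue, fewer cells of a type and less RNA per cell cannot be told apart either.

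The start of the transcript is what these genes share at the level of sequence, and the windows below are shown for this reason. They span 15 bases before to 15 bases from the annotated start on the gene's strand, taken from RefSeq (assembly GRCr8, while the counts rest on Rnor_6.0). Capitals mark the longest run of C and T that begins with C. Rpl31 (chr9:49143096-49143125, plus strand) and Rplp1 (chr8:71290858-71290887, minus strand) are shown as clear cases with the run at the annotated start. The other 7 are those of the 11 members called against control below that have an entry.
Rpl31: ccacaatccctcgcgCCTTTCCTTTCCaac
Rplp1: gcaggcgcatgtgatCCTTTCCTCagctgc
Rpl10a (chr20:6390518-6390547, plus strand): gaaaccttctgCCTTCTTTTCCggttcccg
Rps23 (chr2:23814502-23814531, plus strand): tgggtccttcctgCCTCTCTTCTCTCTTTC
Rpl13a (chr1:104748899-104748928, minus strand): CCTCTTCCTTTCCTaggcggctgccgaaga
Rpsa (chr8:128728864-128728893, plus strand): CCTTTCCgcgctaccctggaacgggtccgt
Rps3 (chr1:163195762-163195791, minus strand): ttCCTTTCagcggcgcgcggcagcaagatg
Rpl18 (chr1:105325255-105325284, plus strand): tctggaCCTggtctagcaggaggcgccatc
Rps12 (chr1:23500060-23500089, plus strand): gcacagaagCCCagcagagcgcttaaatac
In Rpl31 and Rplp1 the run starts at the annotated start. In Rpl13a, Rpsa and Rps3 it lies before the annotated start, and Rpl18 and Rps12 have no long run in the window. The first transcribed base was not measured here, so a run before the annotated start can still be part of the transcript.

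Of the 70 members, 56 had an entry in the table of starts. Among these, 21 (37.5%) had a C at the annotated start followed by at least 4 bases that were C or T, against 2.63% of all 27457 entries and 2.83% of those of the genes tested. A run of at least 8 C or T that begins with C lay within the window in 34 members (60.7%), against 8.45% of all entries. The word CTTTCC, which can be part of such a run, occurred in 14 members (25%) against 1.30% of all entries, and its reverse complement GGAAAG in 1 member (1.79%) against 1.27%. These runs were read on the gene's strand only. A window without a run says only that these letters are not near the annotated start.

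Levels per length (TMM CPM per kb of exon, mean of the 18 rats) differed widely between members. The median member stood at 233 CPM per kb. Rpl21, of the large subunit, was highest at 622, followed by Rps29 at 413 and Rpl9 at 411. The lowest were Rps27l, a paralogue of Rps27, at 12.4, Rpl39, a small protein of the exit tunnel, at 34.3, and Rpl15 at 54.5. Read pairs that map to several places were not counted, so a gene with near-identical copies can be listed below its true level.

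Taken as one sum, the members were highest in ethanol rats, lower in withdrawal rats and lowest in controls. The summed level ran from 9138 to 10624 CPM in control rats (median 10152), from 11054 to 11826 in ethanol rats (median 11301) and from 10356 to 11737 in withdrawal rats (median 10899). Every ethanol rat was above every control rat, while the withdrawal rats overlapped both groups. The mean was 12.8% higher in ethanol than in control, 8.62% higher in withdrawal than in control, and changed by -3.74% from ethanol to withdrawal. In share of all counts on genes, the members took 1.01% ± 0.0466 in control, 1.14% ± 0.0356 in ethanol and 1.09% ± 0.0515 in withdrawal (SD, n = 6 rats each). For each subunit, the mean sum in ethanol was 14.3% above control for the small and 11.9% for the large subunit, and in withdrawal 9.09% and 8.31% above.

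**Figure D1:**
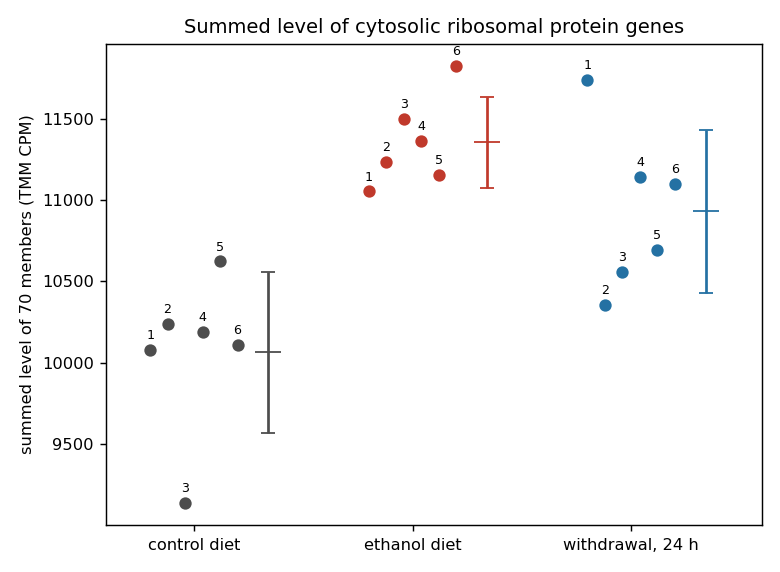
Summed level of the 70 members in TMM CPM (vertical axis, not starting at 0) for each rat, with the rat's number, in the 3 groups; bars beside the points are mean ± SD. The 6 ethanol rats sit between 11054 and 11826, above all 6 control rats, of which rat 3 is lowest at 9138.

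Rats of one group also differed from each other. Control rat 3 had the lowest level of all 18 rats in 56 of the 70 members, and its median member lay 0.16 below the control mean on the log2 scale. Ethanol rat 6 was highest of all rats in 22 members and withdrawal rat 1 in 19. Withdrawal rat 2 had the lowest sum of its group although it carries the same index set as withdrawal rat 1. Without control rat 3, the log2 ratio of the summed level was 0.15 in place of 0.17 for ethanol over control, and 0.09 in place of 0.12 for withdrawal over control. Over the members, group means followed the order control, withdrawal, ethanol from low to high in 61, and control, ethanol, withdrawal in 8. Rpl22 alone had its lowest mean in withdrawal.

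**Figure D2:**
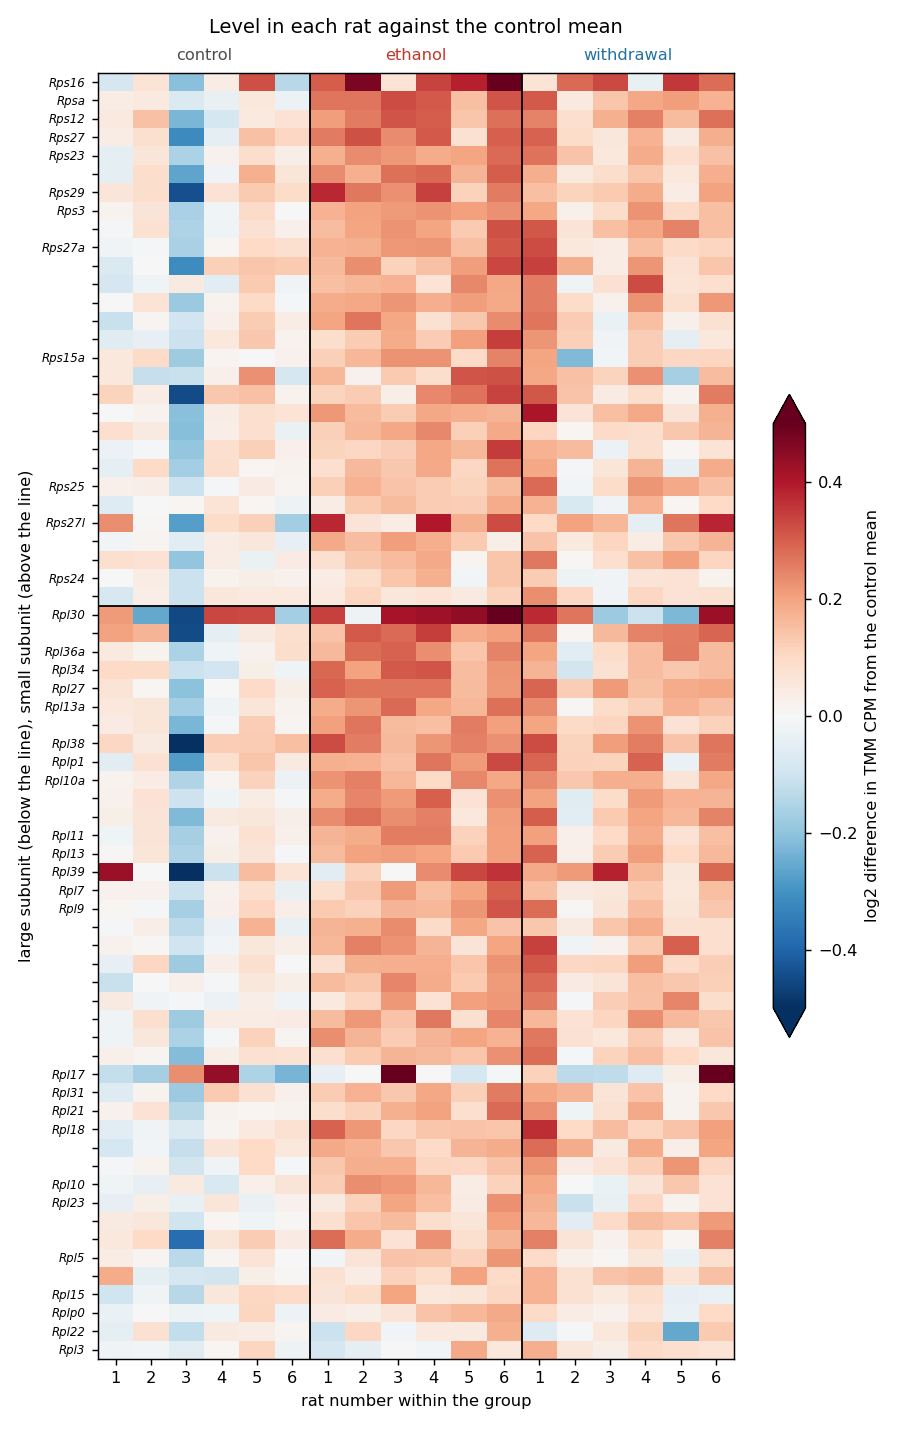
Each row is a member (those described in the text are named) and each column a rat; colour gives the log2 difference of its TMM CPM from the mean of the 6 control rats (red higher, blue lower, clipped at 0.5 either way), with the small subunit above the line. Ethanol columns are red in nearly every row, withdrawal rat 1 is the reddest withdrawal column, and control rat 3 is blue in all but 5 rows.

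During ethanol feeding, ribosomal protein transcripts were higher than in control in all 70 members, by small amounts. The log2 fold change ran from 0.04 (Rpl3) to 0.34 (Rps16), with a median of 0.19, against 0.00 over the 17853 genes tested. Above 0 were 70 of 70, against 50.1% of all genes. With limma-voom at q < 0.1 (Benjamini-Hochberg over all genes tested), 7 members rose and none fell. That is 10% of the members, against 0.336% of all genes called higher and 0.493% called in either direction. At an unadjusted p under 0.05, 60 members were higher, against 6.92% of all genes, and in 30 members every ethanol rat lay above every control rat, against 1.01% of all genes. No member was lower by these rules, against 5.54% of all genes at an unadjusted p under 0.05 and 0.375% without overlap. The median was 0.19 for the small subunit, with 3 of 29 called, and 0.18 for the large subunit, with 4 of 41 called. Under each of 40 alternatives 69 or 70 members were above 0, with 69 when the length trend was removed (Rpl22 below 0), without ethanol rat 5 (Rpl3 below 0) and without ethanol rat 3. The count of calls varied more. It was 1 without control rat 3, when the median was 0.15, and ran from 0 to 23 as each rat was left out, while the share of all genes called ran from 0% to 1.45%.

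**Figure D3:**
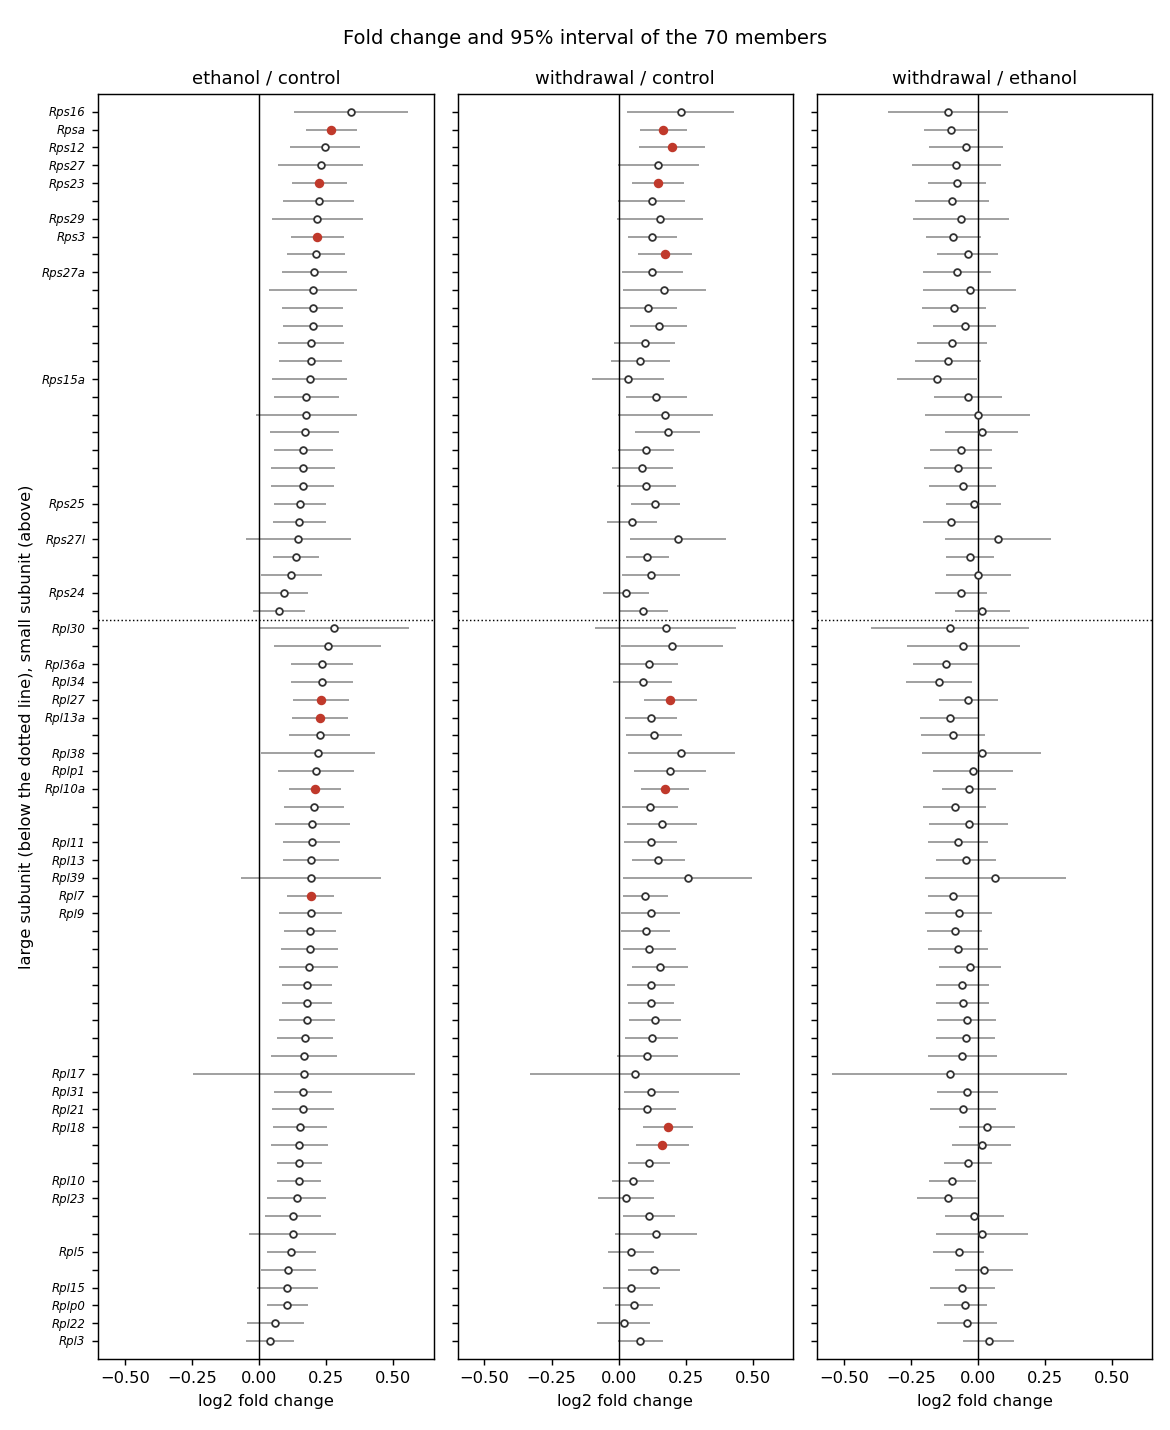
Log2 fold change (horizontal axis) of each member (those described in the text are named) by limma-voom with its 95% interval, for ethanol over control, withdrawal over control and withdrawal over ethanol; filled red points have q < 0.1. All points lie right of 0 in the first 2 panels, and in the third 11 lie right of 0 and none is filled.

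Of the small subunit, Rpsa, which sits where the mRNA leaves the ribosome and is also known as the laminin receptor, rose most clearly. Its level was 281 to 307 CPM in control rats (median 297) and 329 to 371 CPM in ethanol rats (median 362). The groups did not overlap, and the lowest ethanol rat, rat 5, stood apart from the other 5. The log2 fold change was 0.27 (SE 0.04, q = 0.0378). Rps3, which lines the mRNA entry channel and also acts in DNA repair, ran from 186 to 223 CPM in control (median 210) and from 235 to 245 in ethanol (median 241). The ethanol rats were tightly grouped above all controls, with a log2 fold change of 0.22 (SE 0.05, q = 0.0830). Rps23, a protein of the decoding centre, ran from 136 to 162 CPM in control (median 155) and from 172 to 185 in ethanol (median 175). Again there was no overlap, and the log2 fold change was 0.22 (SE 0.05, q = 0.0834). The exact two-sided permutation p was 0.00216 for each of these 3 proteins, the smallest that 6 rats against 6 allow.

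Of the large subunit, 4 members rose. Rpl27 ran from 58.4 to 71.9 CPM in control rats (median 68.2) and from 74.9 to 82.5 in ethanol rats (median 80.9), a log2 fold change of 0.23 (SE 0.05, q = 0.0834). No ethanol rat reached down to the control range. Rpl13a, which can leave the ribosome to silence inflammatory mRNAs in immune cells, ran from 253 to 297 CPM in control (median 292) and from 320 to 346 in ethanol (median 329). Its control rat 3 lay far below the other 5 controls, and the groups did not overlap (log2 fold change 0.23, SE 0.05, q = 0.0834). Rpl10a, of the stalk beside the exit site for tRNA, ran from 47.2 to 56.8 CPM in control (median 53.0) and from 56.3 to 62.5 in ethanol (median 60.6). Here 5 of 6 ethanol rats were above all controls, with a log2 fold change of 0.21 (SE 0.05, q = 0.0834). Rpl7 ran from 214 to 244 CPM in control (median 233) and from 243 to 283 in ethanol (median 259). The highest control and the lowest ethanol rat were almost level, and the log2 fold change was 0.19 (SE 0.04, q = 0.0834). These calls lay close to the threshold. Over 40 alternative settings, q ran from 3.09e-05 to 0.204 for Rpsa, which kept its call in 36, and from 0.00523 to 0.279 for Rpl7, which kept it in 20.

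**Figure D4:**
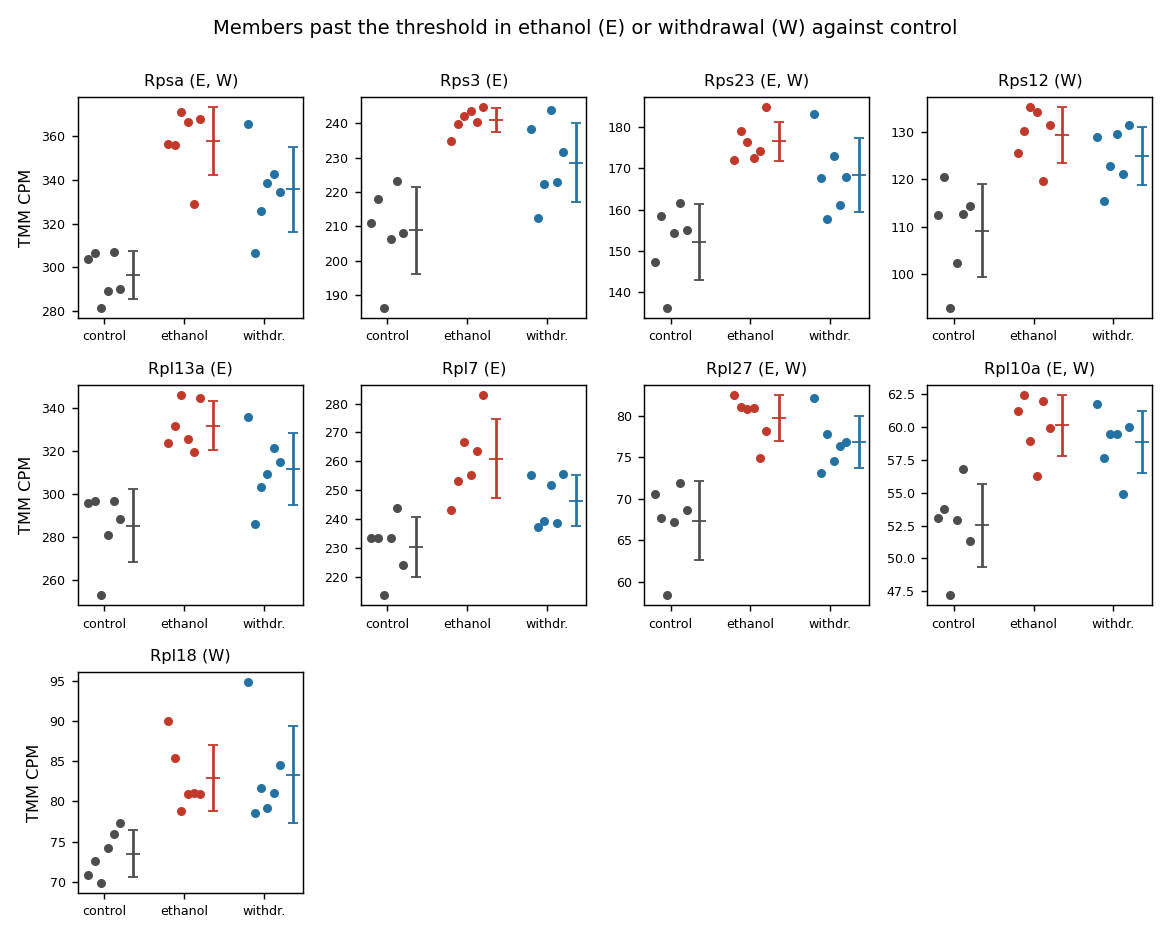
TMM CPM of each rat for 9 of the members with q < 0.1 in ethanol (E) or withdrawal (W) against control; bars beside the points are mean ± SD of 6 rats, and the vertical axes do not start at 0. Ethanol rats lie above all control rats in Rpsa, Rps3, Rps23, Rpl13a, Rpl27 and Rpl18, and withdrawal rats do so in Rpl27 and Rpl18.

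After 24 h of withdrawal the fitted fold change over control was again above 0 in 70 of 70 members, with a smaller median than in ethanol. For Rpl22 the group means, 45.6 CPM in control and 45.5 in withdrawal, went the other way. With no surrogate variable 69 members were above 0. The log2 fold change ran from 0.02 (Rpl22) to 0.26 (Rpl39), with a median of 0.12, against 0.00 over all genes. With limma-voom, 8 members rose and none fell, which is 11.4% of the members, against 2.85% of all genes called higher and 5.41% in either direction. These calls depended on the number of surrogate variables: 0 members were called by limma-voom with none, 1 or 5, where 42, 45 and 15 had an unadjusted p under 0.05, and 0 by edgeR with none, where 42 did. The share of all genes called was also lower in these fits, at 0.230%, 0.627% and 1.47% by limma-voom and 0.185% by edgeR. At an unadjusted p under 0.05, 44 were higher, against 10% of all genes. In 2 members, Rpl18 and Rpl27, the lowest withdrawal rat exceeded the highest control, against 0.605% of all genes. In the other direction there were 0 members by any of these rules, against 2.55% of all genes called lower by limma-voom, 9.7% lower at an unadjusted p under 0.05 and 0.465% lower without overlap. Without control rat 3 the median was 0.09, 67 members were above 0 and 1 was called. As each rat was left out, the count ran from 0 without withdrawal rat 6 to 30 without withdrawal rat 2, while the share of all genes called ran from 0.129% to 10.7% in the same fits. Both comparisons rest on the same 6 control rats.

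The members that rose after withdrawal belonged to both subunits. Rpl18, of the large subunit, ran from 69.9 to 77.4 CPM in control (median 73.4) and from 78.6 to 94.8 in withdrawal (median 81.3). All withdrawal rats were above control, and rat 1 stood well above the other 5 (log2 fold change 0.18, SE 0.04, q = 0.0433). Rpl27 ran from 73.1 to 82.2 CPM in withdrawal (median 76.6), with a log2 fold change of 0.19 (SE 0.05, q = 0.0436). Rpl10a ran from 54.9 to 61.8 CPM in withdrawal (median 59.5), with 5 of 6 rats above all controls (log2 fold change 0.17, SE 0.04, q = 0.0464).

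In the small subunit, Rpsa ran from 306 to 366 CPM in withdrawal (median 337), with 5 of 6 rats above all controls and a log2 fold change of 0.17 (SE 0.04, q = 0.0491). Rps12 ran from 92.9 to 120 CPM in control (median 112) and from 115 to 132 in withdrawal (median 126), with 5 of 6 rats above all controls and a log2 fold change of 0.20 (SE 0.06, q = 0.0810). Rps23 ran from 158 to 183 CPM in withdrawal (median 168), with 4 of 6 rats above all controls and a log2 fold change of 0.15 (SE 0.05, q = 0.0970). Rpsa, Rps23, Rpl27 and Rpl10a were called against control in both ethanol and withdrawal. Rpl18 and Rps12 were called in withdrawal only, with log2 fold changes in ethanol of 0.15 and 0.24 and q of 0.198 and 0.124, so that a difference between the conditions is not shown by these calls.

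Between withdrawal and ethanol, no member was called in the same fit, against 2.72% of all genes (1.23% higher and 1.49% lower in withdrawal). The quasi-likelihood test of edgeR and DESeq2 also called 0, and 4 members (Rps15a, Rpl34, Rpsa and Rpl10) had an unadjusted p under 0.05 by limma-voom, all lower in withdrawal. Of all genes, 8.66% were lower and 8.06% higher at that level. In no member were the groups free of overlap, against 0.605% of all genes higher and 0.594% lower. The median log2 fold change was -0.06, with 11 of 70 above 0, and 66 of the 70 intervals of 95% included 0. The members lowest in withdrawal relative to ethanol were Rps15a at -0.15 (SE 0.07, q = 0.287), Rpl34 at -0.14 (SE 0.06, q = 0.221) and Rpl36a at -0.12 (SE 0.06, q = 0.303). Rpl34 ran from 118 to 132 CPM in ethanol (median 127) and from 100 to 120 in withdrawal (median 118), and the highest withdrawal rat, rat 1, lay above the lowest ethanol rat, rat 5. The 3 members with the highest fitted fold changes of withdrawal over ethanol were Rps27l at 0.07, Rpl39 at 0.07 and Rpl3 at 0.04, with q of 0.700 to 0.836. For Rps27l the direction depended on the fit: its mean was 9.19 CPM in ethanol and 8.85 in withdrawal, and the log2 fold change was -0.052 with no surrogate variable. Within index set 2, which holds 6 ethanol rats and withdrawal rats 1 and 2, the median was -0.04, and 0 of all 17519 genes tested by limma-voom were called, so the absence of called members says nothing about them. At an unadjusted p under 0.05 there were 1 member and 1067 genes.

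**Figure D5:**
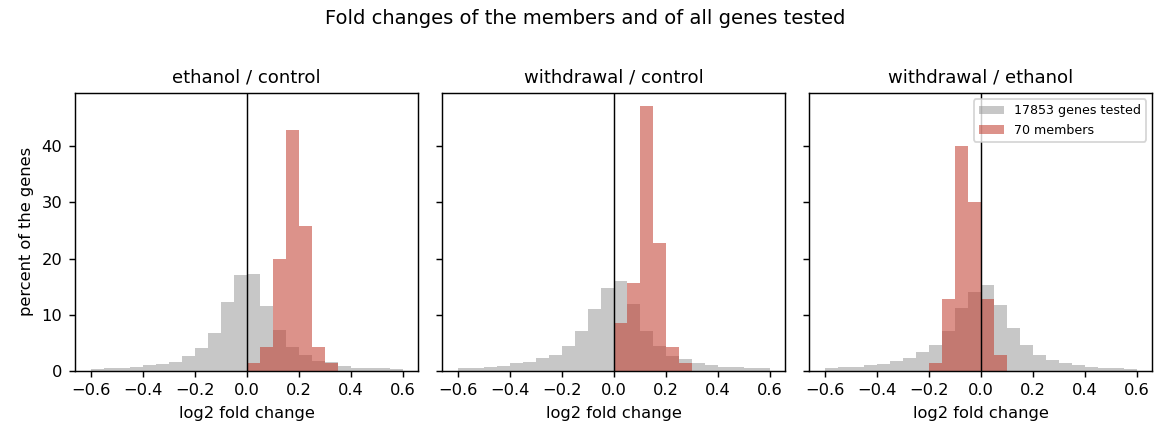
Percent of genes (vertical axis) in bins of log2 fold change (horizontal axis, bins of 0.05) for the 70 members in red and all 17853 genes tested in grey, in the 3 comparisons. The members' medians are 0.19, 0.12 and -0.06, and all genes centre on 0.00.

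The members differ in where they sit in the ribosome, and they were grouped by position in lists made with earlier results known. The counts below stand against 0.336% of all genes and 10% of the members called higher in ethanol, and 2.85% and 11.4% in withdrawal, so that 0 called among 5 to 8 genes sets no list apart. Of 6 proteins along the mRNA channel of the small subunit, Rpsa and Rps3 were called in ethanol and Rpsa in withdrawal, with medians of 0.19 and 0.14. Of the 8 proteins around the exit tunnel, 0 were called by limma-voom in either comparison with control, with all 8 above 0 in both and medians of 0.17 and 0.12. The 5 measured zinc ribbon proteins (Rps27, Rps27l, Rps27a, Rps29 and Rpl36a) had medians of 0.22 in ethanol and 0.15 in withdrawal, with 0 called. Genes mutated in Diamond-Blackfan anaemia, an inherited failure of red cell production, had medians of 0.16 and 0.10 over the 7 measured, with 0 called.

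Rpl5 and Rpl11 bind the 5S rRNA and, when ribosome assembly stalls, the p53 inhibitor MDM2. Rpl11 ran from 97.2 to 115 CPM in control (median 111) and from 118 to 130 in ethanol (median 125). The groups did not overlap, but the fit gave q = 0.128 for a log2 fold change of 0.20. Rpl5 ran from 219 to 252 CPM in control (median 243) and from 238 to 280 in ethanol (median 263), with a log2 fold change of 0.12 (q = 0.261). In withdrawal the values were 0.12 (q = 0.170) for Rpl11 and 0.05 (q = 0.554) for Rpl5.

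Rplp0 and Rplp1 form the stalk that recruits elongation factors. Rplp1 ran from 142 to 190 CPM in control (median 179), from 191 to 217 in ethanol (median 197) and from 168 to 211 in withdrawal (median 196). The ethanol rats began just above the highest control, and the log2 fold change was 0.21 (q = 0.206) in ethanol and 0.19 (q = 0.112) in withdrawal. Rplp0, often used as a reference gene in quantitative PCR, ran from 251 to 277 CPM in control (median 253) and from 263 to 294 in ethanol (median 277), with log2 fold changes of 0.10 (q = 0.240) in ethanol and 0.06 (q = 0.370) in withdrawal. Its control rat 5 stood above the other 5 controls and inside the ethanol range.

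Some members have roles that set them apart, and they were examined for this reason. Rps27a, made as a fusion with ubiquitin, ran from 177 to 212 CPM in control (median 198) and from 219 to 246 in ethanol (median 227), without overlap (log2 fold change 0.21, q = 0.149). Rps25, which is needed for translation from internal entry sites, ran from 126 to 139 CPM in control (median 137) and from 146 to 153 in ethanol (median 149). It too did not overlap in ethanol, with log2 fold changes of 0.15 (q = 0.179) in ethanol and 0.14 (q = 0.104) in withdrawal. Rpl38, which takes part in the translation of Hox mRNAs, ran from 37.9 to 61.7 CPM in control (median 60.1), from 62.2 to 69.7 in ethanol (median 65.6) and from 60.0 to 69.7 in withdrawal (median 65.2). Its control rat 3 was far below the other controls, of which the lowest was at 57.3, and the log2 fold changes of 0.22 and 0.23 had standard errors of 0.10 and 0.09.

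Rpl3 had the smallest fitted fold change in ethanol and Rpl22 the smallest in withdrawal. Rpl22, whose paralogue Rpl22l1 can take its place, ran from 41.7 to 48.0 CPM in control (median 46.4), from 42.3 to 51.4 in ethanol (median 47.0) and from 38.1 to 49.9 in withdrawal (median 46.2). The 3 ranges lay on top of each other, with log2 fold changes of 0.06 (95% interval -0.04 to 0.17) in ethanol and 0.02 (-0.08 to 0.12) in withdrawal. Rpl3, which shapes the site of peptide bond formation, ran from 328 to 366 CPM in control (median 336), from 321 to 387 in ethanol (median 338) and from 347 to 386 in withdrawal (median 359). Its log2 fold changes were 0.04 (95% interval -0.05 to 0.13) and 0.08 (q = 0.276). The next lowest in withdrawal after Rpl22 were Rpl23 and Rps24, both at 0.03 (q = 0.794 and 0.740).

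Apart from Rpsa, the members with the largest fitted fold changes against control were not called. Rps16 ran from 130 to 188 CPM in control (median 148), from 158 to 225 in ethanol (median 193) and from 147 to 192 in withdrawal (median 183). The highest control, rat 5, lay inside the ethanol range, and the log2 fold changes were 0.34 (SE 0.10, q = 0.161) and 0.23 (SE 0.09, q = 0.191). Rpl30, a large subunit protein that in yeast blocks the splicing of its own transcript, ran from 68.0 to 117 CPM in control (median 95.2) and from 91.4 to 137 in ethanol (median 124), with a log2 fold change of 0.28 (SE 0.13, q = 0.406). Rpl39 ran from 6.31 to 12.4 CPM in control (median 9.41) and from 9.56 to 12.02 in withdrawal (median 10.6). Its highest and its lowest rat were both controls, and the log2 fold change in withdrawal was 0.26 (SE 0.11, q = 0.222). Rps27l, a p53 target, ran from 6.43 to 9.15 CPM in control (median 8.07), from 8.01 to 10.3 in ethanol (median 9.29) and from 7.54 to 10.1 in withdrawal (median 8.85), with log2 fold changes of 0.15 (q = 0.544) and 0.22 (q = 0.165).

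Within groups, members rose and fell together from rat to rat. After each group's mean was removed, the first principal component held 51.8% of the variance of the 70 members, against 23.6% for all genes tested, and the median correlation over the 2415 pairs of members was 0.51. These values describe the same 18 libraries, whose depth and composition all members share. Rpl13 followed the mean of the other members most closely (r = 0.95), and Rps3 was next (r = 0.91). The least alike were Rpl17 (r = 0.0084), Rps16 (r = 0.15), Rpl10 (r = 0.25) and Rps27l (r = 0.25).

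The 8 symbols below the level were all near 0: Rps9, Rpl35a, Rplp2, Rps6, Rpl8, Rpl37a, Rps19 and Rpl3l. Their mean levels ran from 0.00168 CPM (Rps9, 1 count over 18 rats) to 0.243 CPM (Rpl3l, 160 counts). Rpl3l is a paralogue of Rpl3 known from skeletal muscle and heart. Rps6, the substrate of the S6 kinases, and Rps19 belong to every ribosome, so counts of 9 and 45 over all rats do not show that they are missing. The rule of counting leaves out read pairs that map to several places or to overlapping genes, and the part of that rule in these values was not tested. Pseudogenes named after ribosomal proteins numbered 632, of which 336 had counts, and together they held 0.859% of the members' summed level.

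Some proteins of the ribosome are missed by the rule on symbols. Fau, made as a fusion that yields a small subunit protein, had means of 151, 175 and 175 CPM in control, ethanol and withdrawal, and was called in withdrawal (log2 fold change 0.19, q = 0.0589) while it just missed the threshold in ethanol (0.23, q = 0.1001). Rack1, a scaffold on the small subunit, had means of 148, 165 and 159 CPM and was called in ethanol (log2 fold change 0.14, q = 0.0843) while it just missed the threshold in withdrawal (0.09, q = 0.107). The paralogue Rpl22l1 had log2 fold changes of 0.12 (q = 0.578) and 0.19 (q = 0.176).

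Other genes tied to ribosomes were taken as lists, and their differences from the members were not tested. Their counts stand against 0.336% of all genes called higher in ethanol and 2.85% in withdrawal. Of 20 other genes with TOP mRNAs, such as elongation factors, 0 were called by limma-voom in ethanol, with a median of 0.06, and Eef1b2 and Tpt1 rose in withdrawal (log2 fold changes 0.15 and 0.21, q = 0.0897 and 0.0755), with a median of 0.08 and 19 of 20 above 0. Of 34 tested genes for ribosome assembly and rRNA synthesis, 0 were called in ethanol, with a median of 0.01, and the pseudouridine synthase Dkc1 and the transcription factor Myc rose in withdrawal (log2 fold changes 0.16 and 0.50), with 29 of 34 above 0. Of 21 genes of the TOR pathway and of TOP mRNA control, 0 were called in ethanol, with a median of -0.03. In withdrawal, Deptor, an inhibitor of mTOR, fell by 0.26 on the log2 scale (q = 0.0170) and the translation initiation factor Eif4g1 rose by 0.13 (q = 0.0711). Eif4g1 and Larp1, the binder of TOP mRNAs, were higher in withdrawal than in ethanol, by 0.21 (q = 0.0346) and 0.16 (q = 0.0940). Of 73 tested mitochondrial ribosomal proteins, 0 were called in ethanol and 3 rose in withdrawal, with a median of 0.03 in both.

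Other measures were set beside the members. The members' exons were short, with a median of 618 bases (range 296 to 1933) against 2932 over all genes tested. Of the 70 members, 69 had at most 1745 bases. The 4395 other genes up to that length had a median log2 fold change of 0.03 in ethanol and 0.01 in withdrawal. The members' medians were 0.19 and 0.12, and these other genes were not matched to the members in level. With a trend on length removed from each library, the members' medians were 0.13 and 0.11. In ethanol 1 member was called in place of 7, while the share of all genes called was 0.263% in place of 0.493%. In withdrawal 13 members were called in place of 8, while that share was 5.66% in place of 5.41%. Red blood cell markers were lower in both groups than in control, with summed levels of 127 to 225 CPM in control, 37.0 to 96.4 in ethanol and 41.6 to 151 in withdrawal. All 4 of these markers tested fell in both comparisons, and 2 of the 6 found were under 1 CPM. Endothelial markers summed to 317 to 389 CPM in control, 348 to 423 in ethanol and 344 to 470 in withdrawal, with 4 of 8 called higher in withdrawal (Pecam1, Kdr, Flt1 and Vwf, by 0.34, 0.60, 0.28 and 0.33 on the log2 scale). Of 8 astrocyte markers, Gfap and Sox9 rose in withdrawal over control, by 0.54 and 0.37, and Aldh1l1 and Gja1 fell, with log2 fold changes of -0.41 and -0.13. Of 8 microglial markers, C1qb rose by 0.38 in withdrawal over control (q = 0.0198), but the list's median was 0.004, with 4 of 8 above 0. In ethanol, 0 of the endothelial, astrocyte and microglial markers were called by limma-voom. Of 66 tested nuclear genes of oxidative phosphorylation, 49 were above 0 in ethanol, with a median of 0.04 and Cox8a called (0.19, q = 0.0688), and 57 in withdrawal, with a median of 0.06 and 0 called. Of 19 tested mitochondrially encoded genes, 19 were above 0 in ethanol, with a median of 0.14 and 1 called higher, and 18 in withdrawal, with a median of 0.17 and 2 called higher. Their summed levels were 8484 to 9303 CPM in control, 8459 to 9897 in ethanol and 8642 to 10415 in withdrawal. The part of length, of these cell types and of mitochondrial RNA in the members' differences was not tested.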

How the data were processed

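Dorsal hippocampus from a 1 mm section was profiled with stranded, paired-end polyadenylated RNA libraries, 1 per rat. The authors aligned reads with STAR 2.5.2a to Rnor_6.0 and counted pairs on NCBI genes with featureCounts 1.5.0. Pairs that mapped to several places or to overlapping genes were not counted. The deposited values are raw counts per gene, with totals of 30873228 to 42679748 per rat. Identifiers were paired with symbols through RefSeq (GRCr8, names and start sequences only), which named 29322 and left 9123 unnamed.

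Genes above 0.5 CPM in at least 1 rat were tested. Counts were scaled by TMM (edgeR 4.0.16) and fitted over all 18 rats by limma-voom (limma 3.58.1) with 3 surrogate variables (sva 3.50.0), in R 4.3.3. Calls were made at q < 0.1 (Benjamini-Hochberg over all genes tested). The choice follows the study's methods, which fitted limma-voom, although the counts would also allow edgeR or DESeq2 (1.42.0), both run as alternatives. Exact two-sided permutation tests compared single genes. Levels are TMM CPM, printed as the lowest, median and highest rat or as mean ± SD. Summaries and plots were made in Python 3.11.15. The steps were tested on simulated data. Libraries of a group differed by more than counting noise.

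Members and lists were chosen with earlier results of these data known. Members were named if called, among the 3 largest or 3 smallest fold changes of a comparison, among the 3 highest or 3 lowest levels per kb, without overlap between groups (at most 5 by q), below the level, or of a role listed for this purpose. From other lists, called genes were named, at most 5 a list and comparison. Genes outside this were chosen after their values were seen: Rpl13, Rpl17 and Rpl10 for their correlations, Rpl31 for its start, and Rpl22l1 for its role. Results on some genes are not reported here. P-values measure the spread between rats.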

Additional observations from a re-analysis of the deposited data

Results flagged for a closer look

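In each group of 6 rats, the highest or lowest rat was compared with the rest by Dixon's ratio, over 114 groups (the 35 members named by rule and 3 summed levels, in 3 groups each), and 17 held a rat that stood apart. The other members, among them Rpl17, were not part of this tally. Chance gives about 1 in 20 where groups are separate. These groups share rats, the members vary together, and some were named for their values, so the 17 cannot be set against that rate. Control rat 3 accounted for most of them, always as the lowest. It stood at 253 CPM for Rpl13a (other controls 281 to 297), 294 for Rpl21, 58.4 for Rpl27, 37.9 for Rpl38, 219 for Rpl5, 153 for Rps24, 126 for Rps25 and 87.6 for Rps29. The same rat stood apart in the summed level of all members, at 9138 CPM, and of the large subunit, at 5577 CPM.

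Among the ethanol rats, rat 5 was lowest for Rpsa at 329 CPM and for Rps27 at 79.7 CPM, rat 3 was highest for Rpl15 at 117 CPM, and rat 6 was highest for the summed small subunit at 4785 CPM. Withdrawal rat 1 was highest for Rpl18 at 94.8 CPM and for Rps27a at 248 CPM. Control rat 5 was highest for Rplp0 at 277 CPM.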

How the results depend on the processing

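The medians held their direction under every alternative run, from 0.13 to 0.21 for ethanol over control and from 0.09 to 0.15 for withdrawal over control, and no alternative called a member lower than in control. The counts of calls depended on the setting, and the causes were not tested. The share of all genes called moved too, from 0% to 2.65% in ethanol and from 0% to 9.1% in withdrawal over control under the settings that keep all rats. Against 7 calls in ethanol over control, the count was 27 with 1 surrogate variable, 20 with 4 and 20 with 5, 35 with DESeq2, 2 with upper quartile scaling, 1 with no filter on low counts, 12 with the filter in at least 6 libraries, 1 at q < 0.05, 1 with only the compared groups and 1 with the length trend removed. With settings chosen after seeing the data, it was 13 with TMM factors from before the filter and 35 with sample quality weights. Against 8 calls in withdrawal over control, the count was 0 with no surrogate variable by limma-voom or edgeR, 0 with 1, 15 with 4 and 0 with 5 surrogate variables, 19 with DESeq2, 5 with upper quartile scaling, 4 with no filter, 4 at q < 0.05, 5 with only the compared groups and 13 with the length trend removed. Withdrawal over ethanol had 1 call, lower, with 1 surrogate variable, where 8.36% of all genes were called, and 0 otherwise. With the other settings that keep all rats, 0% (only the compared groups) to 6.59% (DESeq2) of all genes were called. As each rat was left out, the share of all genes ran from 0% (without ethanol rat 2, among others) to 10.1% (without ethanol rat 5).

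Leaving out each rat gave 0 to 23 calls in ethanol over control. It was 0 without control rat 4, control rat 6 or ethanol rat 3, 1 without control rats 1, 2 or 3, ethanol rat 6 or withdrawal rat 6, 2 without ethanol rat 2 or withdrawal rat 3, 16 without control rat 5, 17 without ethanol rat 5, 21 without withdrawal rat 5 and 23 without withdrawal rat 1. In withdrawal over control the range was 0 to 30, with 0 without withdrawal rat 6, 1 without control rat 3, 3 without control rat 6 or withdrawal rat 1, 4 without control rat 4, 5 without control rat 1, 12 without withdrawal rat 5 and 30 without withdrawal rat 2.

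The groups share replicate numbers, but the numbers name different rats. Of 18 pairs with the same number, 4 had correlated deviations above 0.1 (range -0.325 to 0.383), and 5 rats correlated best with their own number. When a block for replicate number was added beside 3 surrogate variables, 2 members were called in ethanol and 7 in withdrawal over control. The share of all genes called was 0.185% and 5.27%. With the block and no surrogate variable, 0 of all 17853 genes were called in both.

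Some named values near 0 changed sign, none of them called. As each rat was left out, these reached at most 0.042 for Rpl22, 0.064 for Rpl23 and 0.043 for Rps24 in withdrawal over control, and for Rpl3 0.078 in ethanol over control and 0.088 in withdrawal over ethanol. For Rpl22 this was -0.0078 in ethanol with the length trend removed, and in withdrawal over control -0.0076 with no surrogate variable, -0.0051 with edgeR and none, -0.000060 with library totals, -0.0083 with the block and none, -0.0065 with the length trend removed, and -0.0023 and -0.0021 without withdrawal rat 4 and control rat 3. For Rpl23 in withdrawal it was -0.0020 with 5 surrogate variables and -0.0062 without withdrawal rat 1, and for Rps24 -0.00076 without control rat 3. Rpl3 was at -0.0051 in ethanol without ethanol rat 5, and at -0.0050 in withdrawal over ethanol without ethanol rat 2. Rps27l in withdrawal over ethanol was at -0.052 with no surrogate variable, -0.038 with 1, -0.055 with edgeR and none, -0.051 with the block and none, and -0.075 in index set 2. Genes at a few CPM, such as Rps27l and Rpl39, carried the fewest counts.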

Other observations

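Rpl17, a large subunit protein beside the exit tunnel, did not follow the other members, and it is described here because of its values. Its level was 210 CPM in ethanol rat 3, while the other ethanol rats ran from 94.6 to 100.5 CPM. Controls ran from 85.4 to 136 CPM, with rat 4 highest, and withdrawal rat 6 was highest of its group at 143 CPM.

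Mrpl12, Mrps35 and Mrps6 of the mitochondrial ribosome rose in withdrawal over control, by 0.16, 0.15 and 0.29 on the log2 scale (q = 0.0746, 0.0826 and 0.0603). Of the S6 kinase family, Rps6kc1 fell by 0.18 on the log2 scale in withdrawal over control (q = 0.0578), and 0 of the 9 were called by limma-voom in ethanol. Of the red blood cell markers, Hbb fell by 1.59 in ethanol (q = 0.0562) and fell by 1.51 in withdrawal (q = 0.0195), both against control. Hba-a1, Hba-a2 and Alas2 had log2 fold changes of -1.45, -1.60 and -1.64 in ethanol, and of -1.36, -1.54 and -1.54 in withdrawal, all called. Of 11 markers of hippocampal neurons, Prox1 of the dentate gyrus fell by 0.26 in withdrawal over control (q = 0.0968, exact permutation p = 0.102). The list's median was -0.05 there, with 3 of 11 above 0. Gad2 of inhibitory neurons was higher in withdrawal than in ethanol by 0.35 (q = 0.0578), but the list's median was -0.07, with 4 of 11 above 0. Gfap and C1qb were also higher in withdrawal than in ethanol, by 0.74 and 0.35. The thalamic marker Zic4 fell by 0.52 in withdrawal over control (q = 0.0533). Of 8 oligodendrocyte markers, 0 were called by limma-voom in any comparison. Choroid plexus markers summed to between 28.8 and 5441 CPM over the rats, with 0 of 7 tested called by limma-voom in any comparison.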
